A study of Mus musculus with 8 samples.

Results

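The T cell receptor constant region genes are Trac, Trdc, Trbc1 and Trbc2, 4 of the 51229 annotated autosomal genes (GENCODE M21). They were chosen by name, and each gene body was taken with 50 kb to either side on GRCm38 (mm10). Trdc (chr14:54142851-54148868) and Trac (chr14:54220521-54224206) share the TRA/TRD region (chr14:54092851-54274206). Trbc1 (chr6:41538218-41539881) and Trbc2 (chr6:41546730-41548352) share the TRB region (chr6:41488218-41598352). All 4 genes lie on the plus strand. The regions hold 72 and 23 annotated genes, most of them short joining (J), diversity (D) or variable (V) segments.

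The series read CpG methylation across the genome from bisulfite-treated DNA of spleen lymphocytes of C57BL/6J mice, an inbred strain, at 6 to 8 weeks of age. The 4 groups were CD43- B cells of females, CD4+CD62L+ T cells of females, CD43- B cells of males and CD4+CD62L+ T cells of males. The labels name no allele, transgene or treatment for any group. Cells were pooled over animals. The T cells were sorted as naive, that is CD4+ and CD62L high, with low CD44 and no CD25, after a depletion that included cells carrying CD8a or the gamma delta receptor. Each group had 2 samples and 1 file, and it is not stated whether both samples went into it. Each sex gave a single comparison of T with B cells, and the 2 sexes served as the replicates of each cell type. P-values measure only the spread between these files. For methylation in windows of 1 kb they rest on an average spread over windows, not on each window's own.

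The alpha, beta, gamma and delta chains of the T cell receptor are encoded by V and J segments, with D segments for beta and delta. These are cut and joined in developing thymocytes, next to a constant gene that is not rearranged. Joining of segments that lie in the same orientation removes the DNA between them from the chromosome. The delta genes lie inside the alpha locus, so that such a V to J alpha joint removes them. B cells as a rule leave these loci unrearranged. Enhancers known as E-alpha, on the 3 prime side of Trac, and E-beta, on the 3 prime side of Trbc2, drive the loci in T cells, but the annotation used here does not mark them.

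Sequences are shown for 2 segments, at the edge or the low point of read depth in T cells, and for 5 runs of CpGs on the 3 prime side of Trac or Trbc2 that differ in how T and B cells were methylated. They were chosen after the values had been seen and are printed 5 prime to 3 prime on the plus strand of GRCm38. In the first pair the capitals mark the annotated segment, and the letters to either side are its flanks. The Trdj1 segment, the J segment at which depth in T cells first rose, is shown at chr14:54123088-54123238, and the Trbd1 segment, near the lowest depth of the TRB region, at chr6:41533151-41533262.
Trdj1: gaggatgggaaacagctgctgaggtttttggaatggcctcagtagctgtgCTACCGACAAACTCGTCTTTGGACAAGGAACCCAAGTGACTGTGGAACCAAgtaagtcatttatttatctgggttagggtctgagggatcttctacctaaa
Trbd1: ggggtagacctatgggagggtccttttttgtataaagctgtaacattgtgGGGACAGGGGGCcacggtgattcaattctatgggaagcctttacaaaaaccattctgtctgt

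In the next set the capitals mark CpGs. The run low only in T cells after Trac is at chr14:54225876-54226108, the run low in all files at chr14:54227050-54227299 (its first 250 bases) and the short run higher in T cells at chr14:54230700-54230759. After Trbc2, the run low only in T cells is at chr6:41552502-41552751 and the run low in all files at chr6:41554222-41554471 (the first 250 bases of each). All 5 lie between annotated genes.
Trac 3 prime, low in T cells: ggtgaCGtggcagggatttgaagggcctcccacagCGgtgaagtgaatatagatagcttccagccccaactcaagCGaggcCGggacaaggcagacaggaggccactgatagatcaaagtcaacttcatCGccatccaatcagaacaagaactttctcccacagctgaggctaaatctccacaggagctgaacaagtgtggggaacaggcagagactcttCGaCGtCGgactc
Trac 3 prime, low in all files: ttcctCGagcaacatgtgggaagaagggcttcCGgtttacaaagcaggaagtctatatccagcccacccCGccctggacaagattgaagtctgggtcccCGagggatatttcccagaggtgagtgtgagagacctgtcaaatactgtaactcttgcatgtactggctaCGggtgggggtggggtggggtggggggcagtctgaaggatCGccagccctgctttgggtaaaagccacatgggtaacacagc
Trac 3 prime, higher in T cells: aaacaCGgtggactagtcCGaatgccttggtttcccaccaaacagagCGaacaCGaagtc
Trbc2 3 prime, low in T cells: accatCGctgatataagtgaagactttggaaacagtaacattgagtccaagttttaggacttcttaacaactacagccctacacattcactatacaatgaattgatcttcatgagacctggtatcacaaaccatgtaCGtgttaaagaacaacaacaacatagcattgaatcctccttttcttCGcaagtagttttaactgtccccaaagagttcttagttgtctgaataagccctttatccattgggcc
Trbc2 3 prime, low in all files: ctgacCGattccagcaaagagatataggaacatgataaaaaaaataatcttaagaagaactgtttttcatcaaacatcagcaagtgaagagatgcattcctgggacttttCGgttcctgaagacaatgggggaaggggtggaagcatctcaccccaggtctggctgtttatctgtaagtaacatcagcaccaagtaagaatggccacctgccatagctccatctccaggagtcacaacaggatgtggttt

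The files listed CpGs with 5 or more reads. Their autosomal median coverage was 14 and 15 reads in the B cell files and 17 and 16 in the T cell files, females first here and in each pair of values that follows, and 18216084 autosomal CpGs were listed by all 4. Of the 2142 reference CpGs of the TRA/TRD region, 2071 were listed by at least 1 file, and of the 674 in the TRB region, 672 were. The labelled cell types were checked on promoters, taken as the start with 1 kb to either side. The promoters of the 5 B cell markers reported here, Ms4a1 and Cd79a among them, were lower in B cells (8.19% to 32.8%) than in T cells (35.9% to 93.6%). Those of 6 of 6 T cell markers, such as Cd3d and Cd3e, were lower in both T cell files, where they ranged from 1.87% to 29.4%. The promoters of the CD8 genes Cd8a and Cd8b1 were also lower in T cells, at 38.5% to 70.9% against 89.5% to 90.3%. Natural killer markers (Ncr1 and Klrb1c) were at 78.7% to 88.9% across all files. Of 4 gamma delta markers, the gamma constant genes Trgc1, Trgc2 and Trgc4 were lower in both T cell files, at 36.0% to 79.0% against 89.1% to 97.1%. The other, Sox13, was at 2.95% to 3.71% across all files. The remaining gamma constant gene, Trgc3, was not among these markers. Its gene body was at 90.2% and 94.5% in B cells and 93.8% and 91.1% in T cells. None of 3 myeloid markers was lower in both T cell files. Of the latter, Csf1r and Lyz2 were lower in both B cell files, Lyz2 at 41.5% and 50.7% against 64.1% and 66.7%, and Itgam was lower in T cells within each sex, at 71.5% and 66.1% against 76.3% and 70.8%. The part of other cell types in the results was not tested.

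The gene bodies of Trac, Trbc1 and Trbc2 were far less methylated in T cells than in B cells, and that of Trdc was not called different. Depth at Trdc and Trbc1 was 20.6% and 22.9% of the B cell level, while Trac and Trbc2 kept most of theirs. Methylation here is the share of reads with an unconverted cytosine over the CpGs that all 4 files list in gene bodies and windows of 1 kb, and over all CpGs that the file itself lists in longer stretches. Depth is the mean coverage per CpG over a file's autosomal median, with a CpG that a file does not list counted as 0 reads, and an upper value takes it as 4 reads, the most it can hold. The DNA came from many cells, so a partial level in some cells or alleles and a low level in all of them cannot be told apart.

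Trac, the constant gene of the alpha chain, had 84.3% and 80.9% methylation in the female and male B cell files and 13.3% and 19.3% in the T cell files, over 54 CpGs. Both T cell files were below both B cell files, and the sexes were apart by 3.42 (B cells) and -6.02 points (T cells), female minus male. The mean T minus B difference was -66.3 points (quasi-binomial fit over 43284 gene bodies, adjusted p = 0.00733). Its depth was 1.19 and 1.16 in the B cell files and 1.11 and 1.02 in the T cell files, a log2 T over B of -0.15 (edgeR quasi-likelihood test, adjusted p = 0.763).

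Trbc2, the downstream constant gene of the beta chain, was at 94.5% and 94.0% in the B cell files and 9.58% and 11.8% in the T cell files, over 15 CpGs. Groups did not overlap, and the difference was -83.6 points (quasi-binomial fit, adjusted p = 0.00656). Depth was 1.13 and 1.12 in B cells and 0.941 and 0.879 in T cells (log2 -0.30, edgeR adjusted p = 0.699).

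Trbc1, the upstream constant gene of the beta chain, was at 98.9% and 93.2% in B cells, while 0 of 32 and 0 of 31 reads were methylated in the female and male T cell files, over 5 CpGs. A count of 0 allows levels of up to 9.38% and 9.68%, for counting error only. These limits, and those given below, take the reads at each CpG as separate. A read that spans several CpGs is counted at each, so the true limits can be higher. The difference was -96.0 points (quasi-binomial fit, adjusted p = 0.0163). Depth over its 14 CpGs was 0.964 and 0.857 in B cells and 0.252 and 0.165 in T cells, so that T cells had 22.9% of the B cell depth, or 35% with unlisted CpGs at 4 reads. This drop passed the test (log2 -2.14, edgeR adjusted p = 0.00237). The T cell methylation of Trbc1 therefore rests on far fewer reads than that of Trac or Trbc2. Exon 1 of Trbc1 and of Trbc2, each of 375 bases, differ at 1 base (99.7% identity, also after C is read as T), with 259 identical bases in a row, so reads within exon 1 may have been assigned to the wrong copy.

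Trdc, the constant gene of the delta chain, was at 85.2% and 87.5% in B cells and 87.3% and 79.4% in T cells, over the 16 CpGs that all files list. T cells were above B cells in females and below them in males, and the mean difference of -3.0 points did not pass the test (quasi-binomial fit, adjusted p = 0.878). Over all CpGs that each file lists, T cells were lower in both sexes, at 73.0% and 82.2% against 86.3% and 84.6% in B cells (mean -7.82 points, adjusted p = 0.385 in the same kind of fit). Depth fell from 0.999 and 1.02 in B cells to 0.229 and 0.186 in T cells over 62 CpGs. T cells had 20.6% of the B cell depth, or 32.7% with unlisted CpGs at 4 reads (log2 -2.28, edgeR adjusted p = 8.72e-07). Of the 62 CpGs, the B cell files listed 61 each and the T cell files 32 and 29.

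Among all gene bodies, 0.444% were called lower in T cells for methylation, against 3 of the 4 constant genes, and 0.0797% were called lower for depth, against 2 of the 4. None of the 4 was called higher in either measure, where the background was 0.219% for methylation and 0.0605% for depth. The median difference over all gene bodies was -0.27 points of methylation. With limma, fitted to the log2 ratio of methylated to unmethylated reads, which called 0 of 43284 gene bodies (5666 at an unadjusted p under 0.05), the 3 methylation calls were lost (adjusted p = 0.157 to 0.161). The Trbc1 call was also lost without the female T cell file (adjusted p = 0.0959) and without the male one (adjusted p = 0.0873), in quasi-binomial fits with cell type alone.

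**Figure D1:**
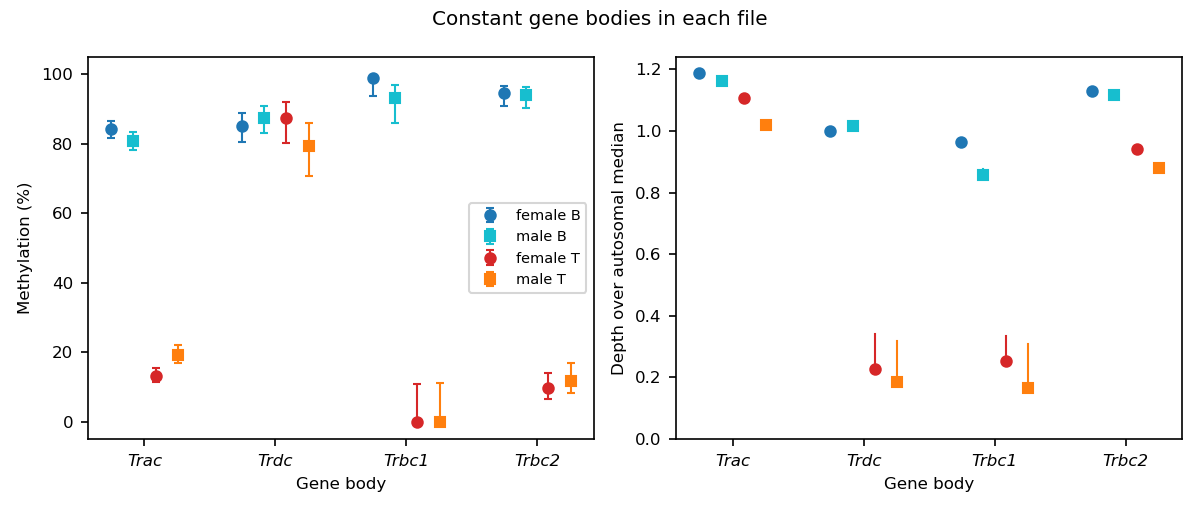
Methylation (left, %) and depth over the autosomal median (right) of the 4 constant gene bodies, 1 point per file. On the left, 95% Wilson intervals cover counting error, with the reads at each CpG taken as separate. On the right, lines reach to the value with unlisted CpGs at 4 reads. T cell points lie far below B cell points in methylation at Trac (13.3% and 19.3%), Trbc1 (0%) and Trbc2 (9.58% and 11.8%), and in depth at Trdc (0.229 and 0.186) and Trbc1 (0.252 and 0.165).

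Exons were read in windows of 1 kb. All 4 tested windows over exons of Trac were called lower in T cells, by 39.3 to 76.3 points. The 1 window over Trbc1 was at 96.2% and 91.7% in B cells, and each T cell file was at 0%, which allows up to 7.69% and 8.11%, and the 3 windows over Trbc2 fell by 80.2 to 89.0 points. Neither of the 2 windows tested over Trdc was called. The exons of Trdc went in opposite directions, as seen over all CpGs that each file lists, and were chosen after their values were seen. In exon 1 T cells were at 93.9% and 92.3% (33 and 26 reads) and B cells at 71.6% and 77.1% over 5 CpGs, and the window that holds it had a mean difference of 13.1 points (quasi-binomial fit, adjusted p = 0.184). In exon 4, which holds 40 CpGs, T cells were lower, at 64.2% and 74.8% (162 and 115 reads) against 86.7% and 84.3% in B cells. One run of 4 CpGs in the intron after exon 2 of Trac (chr14:54222596-54222713) was low in every file, at 3.39% and 1.56% in B cells and 1.39% and 1.41% in T cells.

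Across the TRA/TRD region, depth was averaged over stretches between landmarks. T cells were at 0% to 2.64% of the B cell level from the start of the flank to Trdj1 (at most 22.9% with unlisted CpGs at 4 reads). Around Trdc they were at 18.6% to 20.6% (at most 33.9%). Averages were then higher across the J alpha segments, up to 91.9% from Traj16 to Trac. Single windows of 5 kb ranged more widely. The share was 3.85% at chr14:54095001-54100000, and the upper value reached 28.4% at chr14:54090001-54095000. It was 32.1% (at most 53.8%) at chr14:54130001-54135000, where B cells were at 0.558 and 0.370, and 101.4% at chr14:54210001-54215000. The rise was uneven in windows of 5 kb, with shares of 49.7%, 38.4% and 61.0% in neighbouring windows from chr14:54160001 on. B cells kept a depth of 0.840 to 1.21 in every one of these stretches. Of 37 windows of 5 kb, 18 were called lower in T cells (48.6%), against 0.0741% of 472365 autosomal windows, and 0 were called higher, against 0.144% of all windows (edgeR, with 0 at an unadjusted p under 0.05 and 0 by DESeq2). The TRA/TRD and TRB regions together held 30 of the 350 windows called lower on all autosomes (8.57%).

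In the 5 prime part of the flank, up to Trdd1, depth was 1.08 and 1.10 in B cells and 0.0338 and 0.0238 in T cells, which listed 19 and 12 of 181 CpGs (2.64% of the B cell depth, or 22.9% with unlisted CpGs at 4 reads). From Trdd1 to the end of Trdj1, which takes in both D delta segments, neither T cell file listed any of 103 CpGs, whereas B cells were at 1.13 and 1.11. With each of these CpGs at 4 reads, T cells could have had at most 21.6% of the B cell depth. In the 2 kb before Trdj1 the T cell files listed none of 23 CpGs, which allows depths of up to 0.235 and 0.25, while B cells had 377 and 413 reads. In the 2 kb after it the T cell files listed CpGs with 139 and 110 reads in all, and B cells had 352 and 441. The last unlisted CpG before the edge lay 110 bases past the end of Trdj1, and the first one listed by both T cell files lay 464 bases past it, with 9 and 10 reads.

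Between Trdj1 and Trdc, a stretch that holds Trdj2, T cells were at 0.170 and 0.152 and B cells at 0.894 and 0.840. After Trdc, up to Traj61, the most 5 prime J alpha segment, they were at 0.245 and 0.207 and B cells at 1.09 and 1.21. As a share of B cell depth this was 18.6% before Trdc and 19.6% after it, or 33.9% and 28.8% with unlisted CpGs at 4 reads. The antisense genes Gm30275, which overlaps Trdd1 to Trdj1, and Gm43434, which overlaps Trdj2 and part of Trdc, were called lower in depth as well (log2 -4.84 and -2.52). So was the V delta segment Trdv5, on the minus strand at the end of Trdc (log2 -2.09). In these 3 genes T cells had 3.49%, 17.5% and 23.9% of the B cell depth. With unlisted CpGs at 4 reads the shares were 23.4%, 34.2% and 29.1%. Gm30275 was also called lower in methylation (-33.0 points, quasi-binomial fit, adjusted p = 0.0426), the only gene body of the TRA/TRD region besides Trac, of 8 tested. This value rests on 21 CpGs listed by all files, of 557 listed by any. None of the 21 lies between the start of Trdd1 and the end of Trdj1, where the T cell files list no CpG. The call therefore says nothing on the methylation of that D delta stretch. Within the region, 1 of the 21 lies ahead of Trdd1 and the rest past Trdj1. Gm30275 itself begins at chr14:54067579, outside the region. Over all CpGs that each file lists, Gm30275 was at 87.1% and 86.8% in B cells and 70.3% and 69.8% in T cells. Those levels come from unlike sets of CpGs, as the B cell files list 545 and 555 of them but the T cell files only 61 and 53.

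The J alpha array was cut at Traj46, Traj31 and Traj16. T cell depth in the female and male files was 0.550 and 0.442 from Traj61 to Traj46, 0.693 and 0.637 from there to Traj31, 0.820 and 0.726 to Traj16 and 1.03 and 1.06 from Traj16 to Trac. As a share of B cells this was 43.0%, 58.9%, 74.1% and 91.9%. Over these 4 stretches the order was the same in both sexes, and B cell depth stayed between 0.991 and 1.19. From Trac onward T cells were at 110.8% of B cells up to Dad1, 95.5% in Dad1 and 108.1% after it, and none of the windows of 5 kb there was called.

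Methylation ran the other way. It fell in T cells from 73.4% and 67.6% between Traj61 and Traj46 to 44.5% and 43.6%, 24.4% and 25%, and 12.3% and 13.05% in the next stretches toward Trac. B cells were at 86.3% to 93.6% in all 4 stretches. Upstream of the array, T cells were at 57.1% and 65.1% between Trdj1 and Trdc and at 75.6% and 76.4% between Trdc and Traj61, against 89.2% to 91.9% in B cells.

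Of 125 windows of 1 kb tested in the TRA/TRD region, 67 were called lower in T cells (53.6%), against 1.19% of 1950708 autosomal windows. The median difference was -60.0 points over the called windows and -26.6 over all tested ones. All 67 had the same sign in both sexes, which the rule for a call, applied to the same files, makes likely. The first (chr14:54123001-54124000) overlaps Trdj1, but its CpGs listed by all files lay 464 bases or more past the end of Trdj1. The last ended in Dad1 (chr14:54238000). No window was called higher in T cells, where the background was 0.934% (5 were higher at an unadjusted p under 0.05, and limma called 0). A further 48 windows had 3 or more listed CpGs but could not be tested, with under 3 of them listed by all files. Of 2008 CpGs that both B cell files list, 305 were in neither T cell file and 203 in only 1.

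The 6 called windows with the largest smaller difference of the 2 sexes all lay among the 3 prime J alpha segments, between Traj14 and Traj2. The first of them (chr14:54210001-54211000), between Traj8 and Traj7, was at 95.5% and 94.8% in B cells and 7.96% and 7.07% in T cells over 11 CpGs. The next (chr14:54211001-54212000), which holds Traj7, was at 95.5% and 93.4% in B cells and 5.21% and 10.0% in T cells over 20 CpGs. The other 4, which hold Traj9 and Traj8, Traj12, Traj14 and Traj13, and Traj3 and Traj2, differed by 82.4 to 83.1 points in the sex with the smaller difference.

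**Figure D2:**
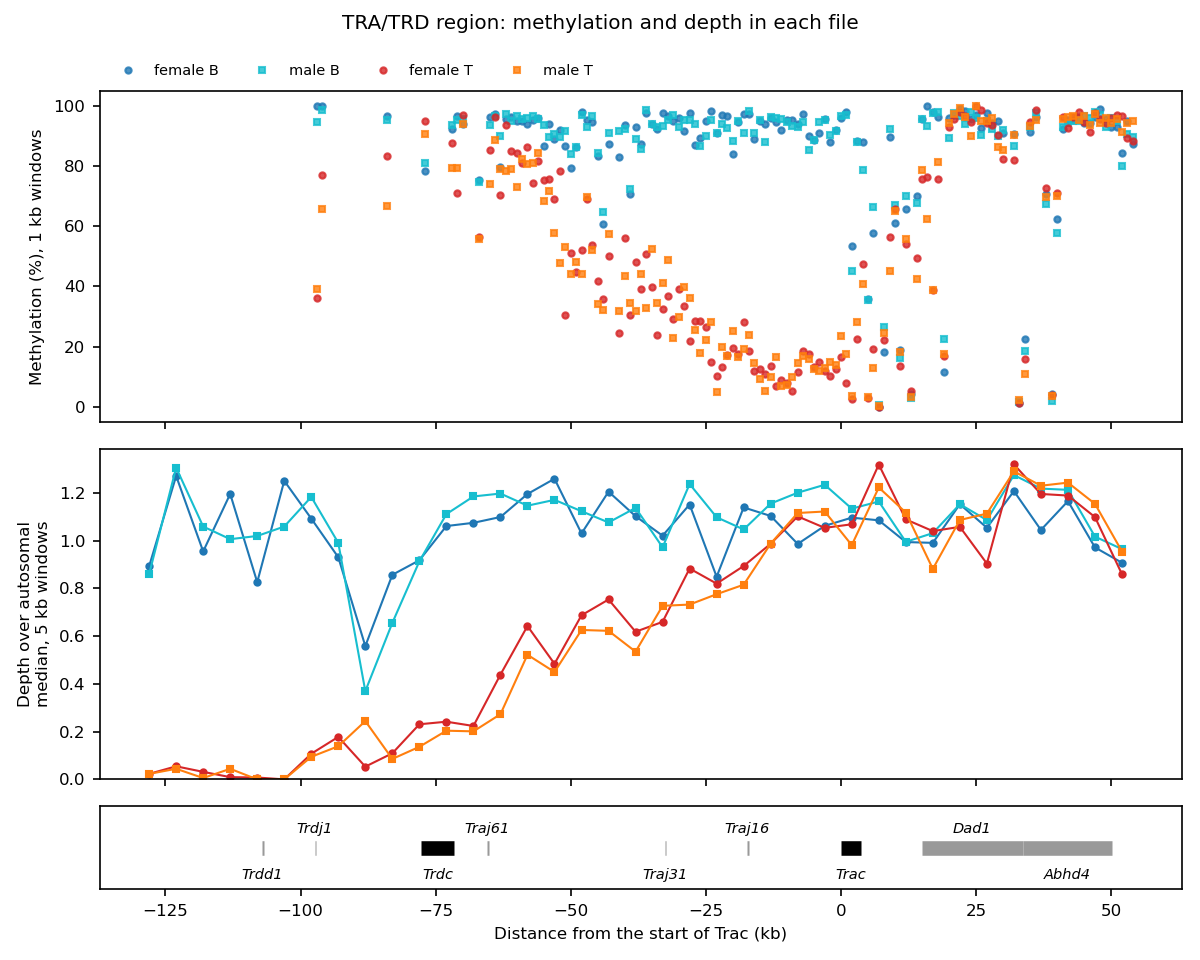
Methylation in 1 kb windows (top, %), depth over the autosomal median in 5 kb windows (middle) and genes (bottom, constant genes in black) by distance in kb from the start of Trac, 1 colour per file. T cell depth, with unlisted CpGs at 0 reads, climbs from near 0 before Trdj1 to an average of 91.9% of the B cell level from Traj16 to Trac. Averaged over stretches, T cell methylation falls from 73.4% and 67.6% after Traj61 to 12.3% and 13.05% before Trac, and B cells stay high.

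After Trac, windows alternated between levels that T and B cells shared and levels that were low only in T cells. The interval between Trac and Dad1, 11272 bases with 232 CpGs, was at 47.9% and 49.7% in B cells and 34.6% and 31.6% in T cells. To describe it by CpG, runs were taken of at least 4 neighbouring CpGs, listed by all files and at most 1000 bases apart, that were all at or under 25% in every file, or at or under 25% in both T cell files and at or over 50% in both B cell files. This rule was set after the values had been seen, so the runs are a description and carry no test.

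Of the runs low only in T cells that lie after Trac, the nearest began 1675 bases after it (chr14:54225881-54226103) and held 8 CpGs. B cells were at 70.5% and 82.4% there, and T cells at 1.69% and 0.935%. The window of 1 kb that holds the start of this run (chr14:54225001-54226000), 4 of its CpGs included, was at 35.9% and 35.5% in B cells and 2.96% and 3.18% in T cells. Other such runs lay 10597 bases after Trac (chr14:54234803-54234986), at 91.5% and 93.5% in B cells and 8.24% and 8.75% in T cells, and inside Dad1 (chr14:54237024-54237122). Dad1, a gene of the oligosaccharyltransferase complex that is used in most cells, was not called over its body (-6.78 points, adjusted p = 0.124 in the quasi-binomial fit).

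Stretches low in every file lay close by. The run that began 2849 bases after Trac (chr14:54227055-54228448) held 26 CpGs at 0.202% and 0.418% in B cells and 0.186% and 0.215% in T cells. A second, at chr14:54231022-54231546, had 20 CpGs at 0.385% and 1.90% in B cells and 0.493% and 0.296% in T cells. In all, the TRA/TRD region had 8 runs of this kind with 171 CpGs, 1 of them across the shared start of Dad1 and Abhd4, and 24 runs low only in T cells with 225 CpGs.

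A run of CpGs higher in T cells lay between these runs. Over 4 CpGs (chr14:54230705-54230754), B cells were at 11.5% and 22.2% and T cells at 69.7% and 65.2%. By the rule used, runs of this kind needed at least 3 CpGs at or under 50% in both B cell files and 20 points or more higher in T cells. It was the only one of its kind in either region, and it was chosen for this difference.

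In the TRB region, depth in T cells was low from the 5 prime flank to Trbc1, at 8.51% to 35.4% of that of B cells in windows of 5 kb (24.4% to 41.7% with unlisted CpGs at 4 reads). The lowest share was in the window that holds Trbd1. Depth then rose across the second D and J cluster to 81.1% of the B cell level in Trbc2. Of 23 windows of 5 kb, 12 were called lower in T cells (52.2%, against 0.0741% of all windows) and 0 higher, against 0.144% (edgeR, with 0 at an unadjusted p under 0.05 and 0 by DESeq2). All 12 lay in one block, from the start of the region to the window that holds Trbd2.

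The flank up to Prss2 was at 0.936 and 1.01 in B cells and 0.219 and 0.242 in T cells. Prss2, a trypsin gene that lies inside the locus, and the pseudogene Gm38018 were called lower in depth (log2 -1.62 and -2.05). In the 2 kb before Trbd1 T cells were at 0.133 and 0.0417, and in the 2 kb after it at 0.134 and 0.0982, with B cells at 0.991 to 1.34, and unlisted CpGs at 4 reads would put T cells at 0.258 to 0.294. Between Trbd1 and Trbc1, which holds the first J beta cluster, T cells had 19.3% of the B cell depth, or 29.0% with unlisted CpGs at 4 reads.

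From Trbd2 to Trbc2, which holds the second D segment and its J beta cluster, T cells were at 0.641 and 0.733 and B cells at 1.01 and 1.06. The share was 66.4% there, 81.1% in Trbc2, 85.2% from Trbc2 to Trbv31 and 101.6% after Trbv31. The windows of 5 kb from Trbc2 onward were not called, with log2 values of -0.23 to 0.17. Trbv31, a V beta segment that lies after Trbc2 in the opposite orientation, was at 1.39 and 1.30 in T cells and 1.31 and 1.13 in B cells over 5 CpGs, too few for a test of depth.

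T cell methylation was at or near 0 over both D and J beta clusters. From Trbd1 to Trbc1 it was 0% and 0.654%, against 85.1% and 85.9% in B cells, and 0 of 215 reads in the female file allows up to 1.40%. From Trbd2 to Trbc2 it was 0.135% and 0.251%, against 76.5% and 74.5%. In the 5 prime flank up to Prss2, T cells were at 90.3% and 86.4%, close to the 87.9% and 88.6% of B cells. From Prss2 up to Trbd1, T cells were lower, at 59.7% and 79.1% against 86.1% and 86.2% in B cells. In the 2 kb before Trbd1 no T cell read was methylated, of only 34 and 10, against 83.7% and 82.5% in B cells.

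Of 61 windows of 1 kb tested in the TRB region, 17 were called lower in T cells (27.9%, against 1.19% of all windows) and 0 higher (1 at an unadjusted p under 0.05, and limma called 0). Called windows ran from the first J beta cluster (chr6:41535001-41536000) to chr6:41582000, with a median difference of -80.2 points, while the median over all 61 was -2.84. A further 38 windows could not be tested, with under 3 CpGs listed by all files.

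The 6 with the largest smaller difference of the 2 sexes lay between the first J beta cluster and Trbc2. The window after that cluster (chr6:41536001-41537000) was at 93.8% and 96.2% in B cells and 0% and 3.45% in T cells, over 3 CpGs, with 25 and 29 reads in T cells, so that the 0 allows up to 12%. The window ahead of Trbc2 (chr6:41545001-41546000) was at 97.1% and 89.7% in B cells, and T cells had no methylated read of 106 and 128, which allows up to 2.83% and 2.34%. The segments Trbj2-7 and Trbv31 were called as gene bodies, by -69.6 and -56.7 points (quasi-binomial fit, adjusted p = 0.0265 and 0.0179), and no T cell read was methylated in either. The B cell files lay far apart at Trbj2-7, at 87.2% and 52.0% over 3 CpGs. For Trbv31 these were 118 and 104 reads, which allow up to 2.54% and 2.88%, and for Trbj2-7 60 and 47 reads, which allow up to 5% and 6.38%.

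**Figure D3:**
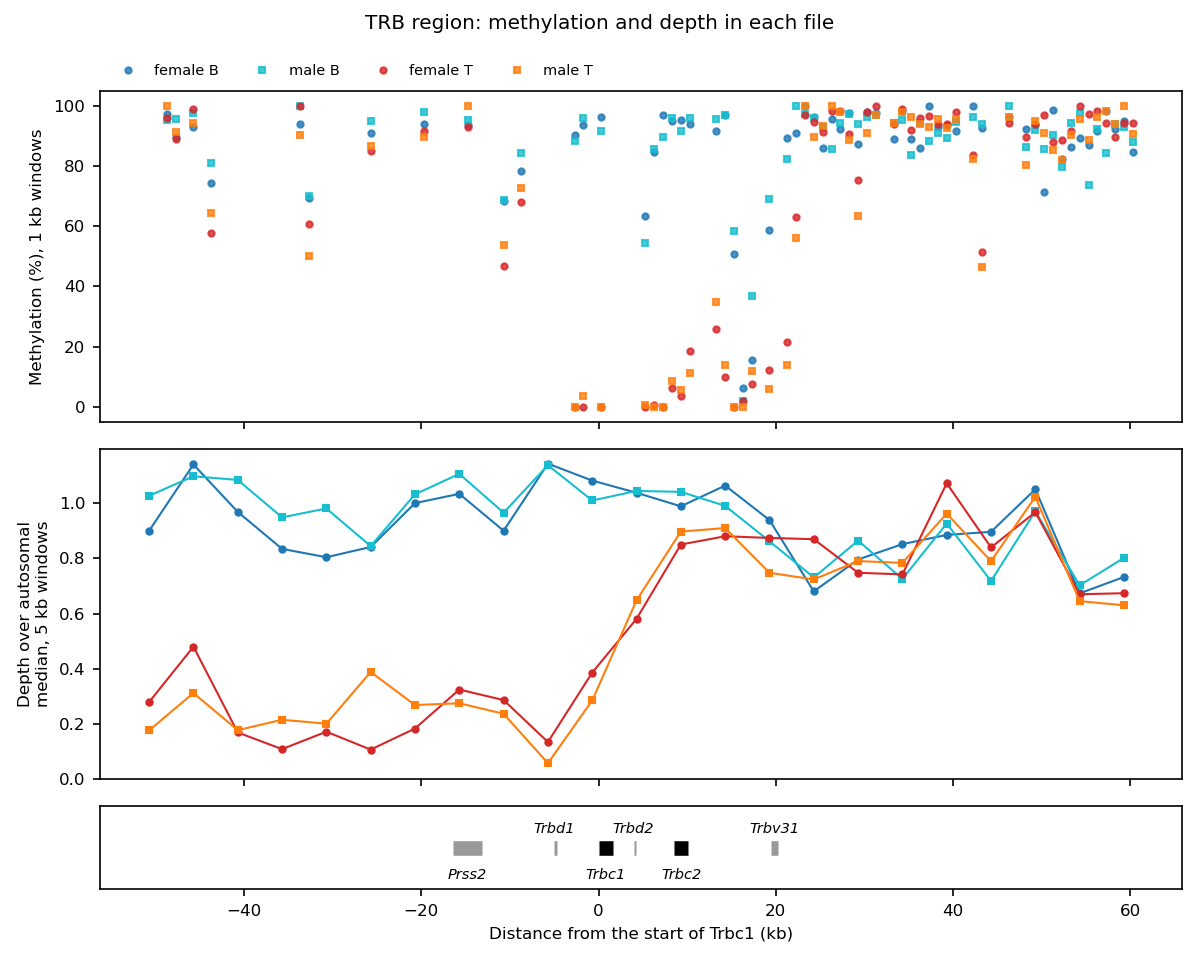
Methylation in 1 kb windows (top, %), depth over the autosomal median in 5 kb windows (middle) and genes (bottom, constant genes in black) by distance in kb from the start of Trbc1, 1 colour per file. T cell depth is low up to Trbc1 and reaches 81.1% of that of B cells in Trbc2, and T cell methylation is at or near 0% from the first J beta cluster to Trbc2.

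After Trbc2, too, levels shared by all files lay beside levels low only in T cells. From Trbc2 to Trbv31, 9338 bases with 38 CpGs, B cells were at 62.7% and 67.3% and T cells at 12.8% and 13.3%. The run that began 4155 bases after Trbc2 (chr6:41552507-41552918, 5 CpGs) was at 96.5% and 98.9% in B cells and 5.41% and 7.14% in T cells. The run that began 5875 bases after it (chr6:41554227-41555149, 8 CpGs) was low in all files, at 4.26% and 1.60% in B cells and 1.64% and 0% in T cells, and was the only one of its kind in the region. In the male T cell file it had no methylated read of 100, which allows up to 3%.

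Farther out, windows at chr6:41559001-41560000, after Trbv31, and at chr6:41581001-41582000 fell by 68.4 and 44.5 points. The window just before the second was not called, at -15.1 points over 3 CpGs.

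**Figure D4:**
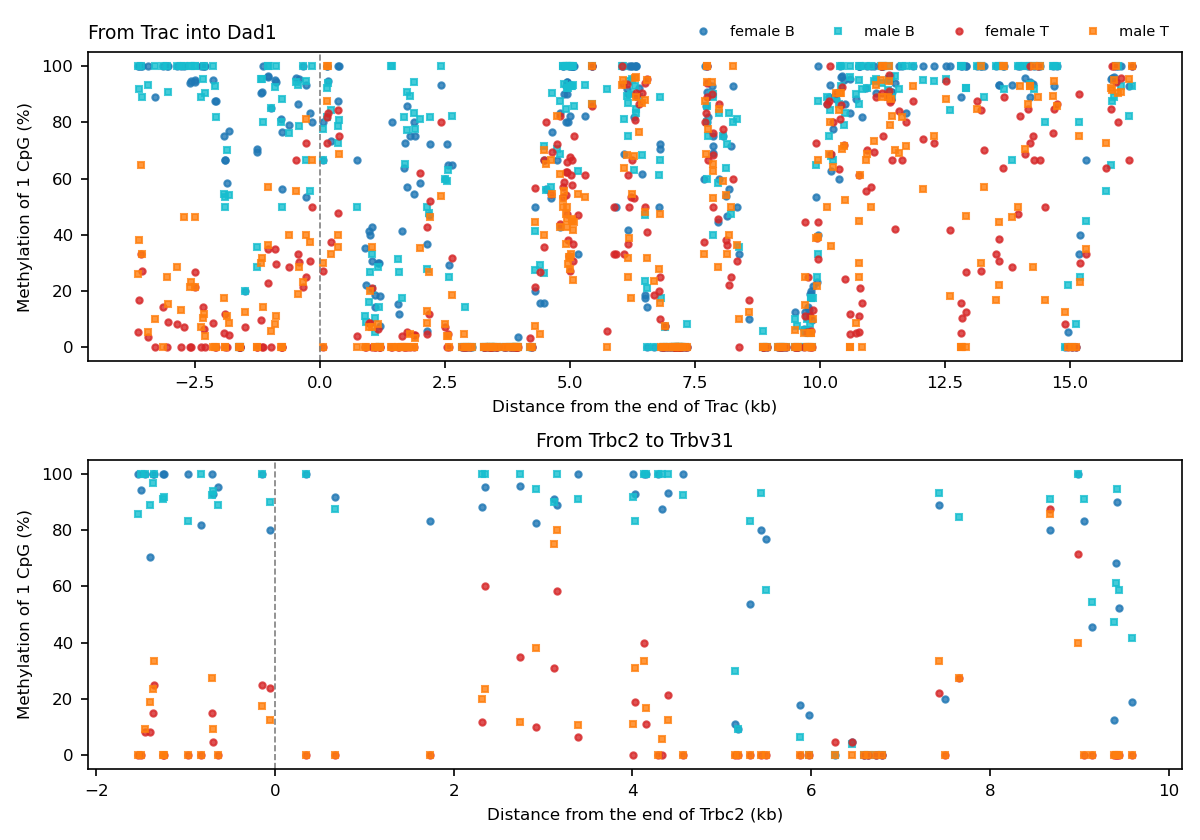
Methylation of single CpGs (%) by distance in kb from the end of Trac (top) and of Trbc2 (bottom), with a dashed line at the end of the gene. There is 1 point per CpG and file that lists it. Stretches near 0% in all 4 files lie beside stretches where only T cells are low, such as the runs that begin 1.68 kb after Trac and 4.16 kb after Trbc2.

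The gamma chain constant genes Trgc1 to Trgc4 were read alongside. Of these, Trgc2 was called lower in T cells, at 90.2% and 91.2% in B cells and 48.5% and 47.6% in T cells (-42.6 points, quasi-binomial fit, adjusted p = 0.0284). Trgc1 was at 88.6% and 88.2% in B cells and 53.8% and 48.5% in T cells, and did not pass (adjusted p = 0.0580). Trgc3 and Trgc4 were not called, and no Trgc gene was called for depth (log2 -0.53 to -0.05). Of the immunoglobulin constant genes Ighm, Ighd, Igkc, Iglc1 and Iglc2, none was called for methylation, with differences of 1.46 to 35.5 points, all higher in T cells. Ighm, at 19.4 points, had an adjusted p of 0.0309 in the quasi-binomial fit and missed the 20 points that a call needed, and Iglc3 had too few CpGs listed. Whether the alpha and beta loci differed from these loci was not tested.

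A list of 24 genes for the receptor complex, its signalling and its regulators was read over gene bodies. Of these, 11 were called lower in T cells and 0 higher (2 at an unadjusted p under 0.05), against 0.444% and 0.219% of all gene bodies, with a list median of -17.9 points. They were the CD3 chains Cd3d (-61.8 points), Cd3e (-21.9), Cd3g (-32.2) and Cd247 (-32.7), the co-receptor chain Cd8b1 (-21.3), the kinase Lck (-24.7), the adaptor Lat (-30.6) and the transcription factors Tcf7 (-46.7), Bcl11b (-29.7), Ets1 (-24.1) and Lef1 (-31.5). The co-receptor genes Cd8a (-19.6 points, adjusted p = 0.0106) and Cd4 (-16.3 points, adjusted p = 0.00958, quasi-binomial fit) missed the 20 points that a call needed. So did Gata3, Zap70 and Runx1, also lower, and Tcf3, higher in T cells (8.91 points), each at an adjusted p under 0.05. The recombinase genes Rag1 and Rag2 were at 6.79 and 5.70 points and not called. In depth none of the 24 was called by edgeR or DESeq2 (6 at an unadjusted p under 0.05), with log2 values of -0.09 to 0.26.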

How the data were processed

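Whole-genome bisulfite libraries covered 8 samples, in 4 groups of 2 that share 1 file each. The submitters' processing notes name Trim Galore, FastQC, Bismark 0.13.1 and mm10; duplicate removal and conversion rates are not given in the sources used here. The methylation level deposited by the authors is a fraction per CpG, and the coverage deposited beside it is a count of reads; both strands were merged and entries under 5 reads left out. Positions in the files count from 0, and 1 was added, after which all entries of both regions lay on reference CpGs.

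Methylated reads were recovered as level times coverage, rounded. Windows of 1 kb and gene bodies with at least 3 CpGs listed by all files were fitted with terms for cell type and sex in a quasi-binomial logistic regression, the dispersion squeezed with limma 3.58.1 in R 4.3.3 towards a prior from features with 5 or more expected reads of each kind. For windows the prior took over fully, so their p-values rest on an average spread and overstate certainty. Coverage sums over 5 kb windows and gene bodies (at least 10 CpGs and 100 reads) were fitted with edgeR 4.0.16, offset by each file's autosomal median. A read spanning several CpGs counts at each. Calls needed a Benjamini-Hochberg adjusted p under 0.05 over all autosomal features, with 20 points or 1.5-fold. Named windows were, per region and direction, the 6 called ones with the largest smaller difference of the 2 sexes. The depth of DNA and how well it maps cannot be told apart in any 1 file. Alternatives were limma on log2 ratios (pseudocount 1), DESeq2 1.42.0, edgeR's TMM, other windows, minimums, priors and thresholds, and leaving out each file. The fits were also run on simulated data, and the outcome is not reported here. The members and lists were chosen with earlier results of these data known. Intervals and limits for a count of 0 (3 counts) cover counting error only. They take the reads at each CpG as separate, so they are too narrow where a read spans several CpGs. Proteins of the constant genes were not used here, and 1 B cell marker is not reported here.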

Additional observations from a re-analysis of the deposited data

Results flagged for a closer look

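The following differences had opposite signs in females and males, and the difference between the sexes was not tested. Over the body of Trdc, T minus B methylation was 2.06 points in females and -8.06 in males, with 126 and 107 reads in the T cell files, over the 16 CpGs that all files list. Over all CpGs that each file lists it was negative in both sexes. In the flank up to Trdd1 it was 9.31 points in females and -6.56 in males, but the T cell files listed 19 and 12 CpGs there and the B cell files 175 and 180, with 1 CpG in common, at which T cells were higher in both sexes. In the flank up to Prss2 it was 2.41 points in females and -2.24 in males over the CpGs of each file. Over the 50 CpGs in common T cells were lower in both, at 89.1% and 86.6% against 89.4% and 91.9% in B cells. Over the body of Trgc3 it was 3.59 points in females and -3.40 in males. Depth after Trbv31 was 0.0337 higher in T cells of females against a difference of -0.00788 in males, and over the whole 3 prime flank of Trbc2 the difference was 0.00754 in females and -0.0165 in males.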

How the results depend on the processing

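Of 113 alternative values, 104 kept their direction and side of the threshold (counts within 1.5 times). In 500 bp windows, 114 of 204 tested windows of the TRA/TRD region were called, against 67 of 125 at 1 kb. In the TRB region 25 of 64 were called, against 17 of 61. With only the CpGs that all 4 files list, which leaves out CpGs that the T cell files do not list, 9 and 3 windows of 5 kb were called for depth in the TRA/TRD and TRB regions against 18 and 12, and Trbc1 could not be fitted. With limma on log2 ratios the methylation calls of Trac (-66.3 points, adjusted p = 0.161), Trbc1 (-96.0 points, adjusted p = 0.157) and Trbc2 (-83.6 points, adjusted p = 0.157) were lost, and the cause was not tested. Without 1 file each, with cell type alone, methylation differences ranged from -69.3 to -63.3 points at Trac, -98.9 to -93.2 at Trbc1, -84.7 to -82.4 at Trbc2 and -6.93 to 0.93 at Trdc, where the sign turned without the male T cell file (0.932 points). Trbc1 was no longer called in these fits when either T cell file was left out (-96.0 points in both cases). The same fits gave 66 to 69 and 16 to 17 windows of 1 kb and 19 to 20 and 12 windows of 5 kb called in the TRA/TRD and TRB regions. Over all autosomes, counts moved more: gene bodies called for methylation were 83 and 98 without the female and male T cell file and 0 by limma, against 287, and 1 kb windows 21102 by limma and 72554 at 500 bp, against 41431. For depth, 5 kb windows called were 325 (CpGs in all files), 396 (DESeq2), 625 (unlisted CpGs at 4 reads) and 1624 (without the male B cell file), against 1028, and gene bodies 90 to 259 without a file other than the female T cell one, 93 with cell type alone and 118 with no filter, against 51. With all CpGs that each file lists, Trdc was at -7.82 points and not called. With a minimum of 10 reads Trdc and Trbc1 had too few CpGs for a fit.

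No paired analysis was possible because the groups share no replicate numbers, as far as pairing by number goes. The main fits set T against B cells within each sex through the term for sex, and fits with cell type alone changed no call at the 4 genes. These values are limited in that each group has 1 file. CpGs under 5 reads are not listed, so that low depths in T cells are bounds. Methylation in stretches of low depth rests on few reads, such as 32 and 31 at Trbc1 in the T cell files.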
